A study of Mus musculus with 71 samples.

Results

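H3K27me3 was measured by chromatin immunoprecipitation and sequencing (ChIP) in neural progenitor cells (NPC) at day 8 of differentiation, in cells with wild-type CBX7 (WT) and in cells with the CBX7-CaPS form (CaPS). The comparison covers every interval of the day-8 H3K27me3 peak table, 8657 of the 82673 peaks in the 10 deposited tables, with no selection among them. Both lines derive from mouse J1 embryonic stem cells (ESC), and differ, as far as the labels say, only in the form of CBX7. For the NPC state, cells were cultured in suspension as aggregates without LIF, the cytokine that holds ESC in the pluripotent state, and were given retinoic acid in the later days. ESC had been grown on feeder fibroblasts, which were removed before differentiation, and the ChIP reactions held Drosophila chromatin as a spike-in. Each genotype has 1 column, which the table's header calls pooled, while the labels list 1 library per genotype, both from experiment 5. The sources used here do not give the number of clones behind a genotype. There is thus no replicate check for H3K27me3 at day 8, and the values below compare these libraries.

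H3K27me3, trimethylation of lysine 27 of histone H3, is laid down by Polycomb repressive complex PRC2 and marks silent developmental genes. PRC1 binds this mark through CBX subunits, of which CBX7 predominates in ESC, and its RING1B subunit is the catalytic core that ubiquitinates histone H2A. The CaPS domain, named for compaction and phase separation, is known from CBX2, a CBX protein of committed cells. As ESC become neural progenitors, genes of the neural programme lose the mark while genes of other lineages keep or gain it.

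Values are tags in the peak per 10 M tags of the library (M, mega), as the authors deposited them, on mm10 coordinates. WT had a total of 4.47 M tags and CaPS 32.88 M, a ratio of 7.36. The share of tags that fell inside the peaks was 16.4% in WT and 8.20% in CaPS. The ratio of the summed values, CaPS to WT, was therefore 0.501, and scaling both columns to the same sum over the peaks adds 1.00 to the log2 ratio of the values. Both scalings are given because nothing in the files decides between them. A count of 3 tags, which an observed 0 allows, equals 6.71 tags per 10 M in WT and 0.912 in CaPS. Ratios carry exact 95% intervals that cover counting error only. In bulk chromatin, fewer cells carrying the mark and less mark per cell cannot be told apart.

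Promoter sequences of 6 genes, picked as examples from both sides of the comparison, are shown here. They are from RefSeq (GRCm38.p6), each 300 bases long and lying wholly inside a day-8 H3K27me3 peak. Hes5, Rfx4 and Pax6, genes of neural progenitors, had more H3K27me3 in CaPS. Lhx1, a LIM factor that is also a gene of neuronal differentiation, and the signalling genes Pdgfra and Bmp4 had less. Among peaks with at least 100 tags over both libraries, Gm40959, Gm46091, Lemd1 and Zfp536 also had windows in peaks higher in CaPS past 2-fold. Capitals mark CG dinucleotides, which read CG on both strands and which Polycomb complexes are known to favour when dense and unmethylated. The lines run 5′ to 3′ from 250 bases before to 50 bases after the start, for Hes5 at chr4:154960673-154960972 (+), Rfx4 at chr10:84755798-84756097 (+), Pax6 at chr2:105682213-105682512 (+), Lhx1 at chr11:84525485-84525784 (-), Pdgfra at chr5:75152001-75152300 (+) and Bmp4 at chr14:46390620-46390919 (-).
Hes5: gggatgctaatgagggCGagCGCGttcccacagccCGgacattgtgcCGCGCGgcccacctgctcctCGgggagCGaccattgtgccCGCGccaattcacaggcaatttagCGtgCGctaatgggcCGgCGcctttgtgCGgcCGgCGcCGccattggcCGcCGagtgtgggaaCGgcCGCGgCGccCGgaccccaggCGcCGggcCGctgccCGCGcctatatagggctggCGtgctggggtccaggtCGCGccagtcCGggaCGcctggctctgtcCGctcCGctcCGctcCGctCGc
Rfx4: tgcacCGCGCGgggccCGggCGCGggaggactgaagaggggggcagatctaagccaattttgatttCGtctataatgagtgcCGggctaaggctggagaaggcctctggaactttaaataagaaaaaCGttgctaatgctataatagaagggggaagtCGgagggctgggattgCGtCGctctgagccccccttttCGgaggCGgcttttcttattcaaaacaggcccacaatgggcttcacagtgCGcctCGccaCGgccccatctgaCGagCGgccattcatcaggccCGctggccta
Pax6: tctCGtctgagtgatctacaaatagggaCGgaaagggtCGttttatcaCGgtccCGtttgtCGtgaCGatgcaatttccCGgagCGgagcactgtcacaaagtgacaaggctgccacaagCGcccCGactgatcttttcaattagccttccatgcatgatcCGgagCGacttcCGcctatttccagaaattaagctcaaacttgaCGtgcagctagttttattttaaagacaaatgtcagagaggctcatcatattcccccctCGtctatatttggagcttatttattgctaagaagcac
Lhx1: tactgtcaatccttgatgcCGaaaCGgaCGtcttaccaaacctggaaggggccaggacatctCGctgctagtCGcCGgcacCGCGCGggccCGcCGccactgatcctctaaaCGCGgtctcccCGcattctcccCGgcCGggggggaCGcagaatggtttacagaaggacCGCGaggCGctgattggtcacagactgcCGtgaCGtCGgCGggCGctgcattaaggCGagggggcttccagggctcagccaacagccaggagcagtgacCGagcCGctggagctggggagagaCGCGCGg
Pdgfra: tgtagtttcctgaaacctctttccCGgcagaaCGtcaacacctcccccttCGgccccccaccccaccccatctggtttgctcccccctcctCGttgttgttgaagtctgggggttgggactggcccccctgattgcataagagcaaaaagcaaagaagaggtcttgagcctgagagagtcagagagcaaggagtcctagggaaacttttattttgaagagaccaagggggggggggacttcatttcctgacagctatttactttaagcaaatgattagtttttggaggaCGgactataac
Bmp4: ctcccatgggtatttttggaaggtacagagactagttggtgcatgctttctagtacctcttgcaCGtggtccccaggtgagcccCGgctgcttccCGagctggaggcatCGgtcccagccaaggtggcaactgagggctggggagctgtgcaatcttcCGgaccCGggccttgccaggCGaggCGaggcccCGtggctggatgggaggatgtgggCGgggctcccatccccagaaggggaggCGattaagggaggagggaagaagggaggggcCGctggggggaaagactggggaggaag
These windows held 41, 20, 16, 31, 5 and 12 CG in that order, against a median of 7 over all 32851 RefSeq promoter windows and of 17 over the 2333 windows that lay wholly inside a day-8 H3K27me3 peak. At least 20 CG stood in 26.5% of all windows and in 42.1% of those inside a peak. CG number did not order the windows by genotype difference. Among peaks with at least 100 tags over both libraries, the median was 18 CG for 83 windows in peaks lower in CaPS past 4-fold, 18 for 825 windows lower 2- to 4-fold, 17 for 1301 within 2-fold and 17 for 8 windows higher past 2-fold.

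Across the table H3K27me3 was lower in CaPS per total tags, and near equal in the middle of the distribution once the columns had the same sum. The median level was 52.6 tags per 10 M in WT and 26 in CaPS. The median log2 ratio, on log2(value + 1), was -1.06 (0.479-fold, interval of the median over peaks -1.08 to -1.04), and 7835 peaks (90.5%) were lower in CaPS. Past 2-fold, 4598 peaks (53.1%) were lower and 242 (2.8%) higher. With columns at the same sum the median was -0.094, with 1975 peaks (22.8%) lower and 802 (9.26%) higher. The offset between libraries thus carried most of the lower count, while a spread to both sides remained under either scaling. Past 4-fold per total tags, 1774 peaks (20.5%) were lower and 54 (0.624%) higher. Intervals lay wholly below a ratio of 0.5 at 2180 peaks and wholly above 2 at 30.

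**Figure D1:**
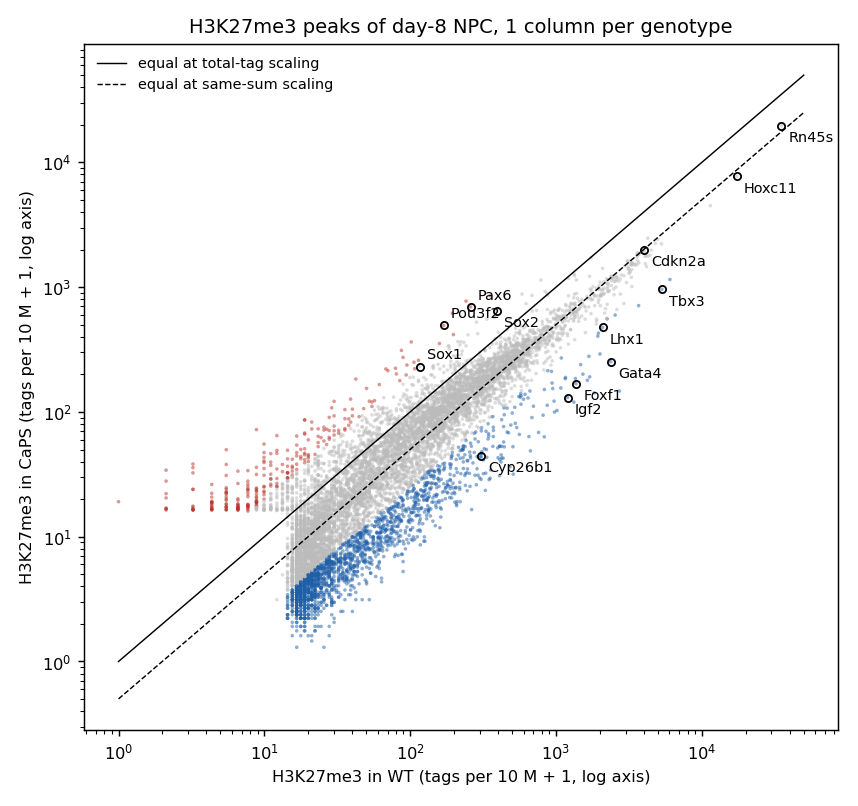
H3K27me3 of each of the 8657 day-8 peaks in WT (x axis) and CaPS (y axis), in tags per 10 M plus 1 on log axes, with peaks lower past 4-fold in blue, higher past 2-fold in red and the others in grey. The solid line marks equal values per total tags and the dashed line equal values once the columns have the same sum; Gata4, Foxf1 and Tbx3 lie far below both lines, Hoxc11 and Cdkn2a near the dashed line, and Pax6, Pou3f2 and Sox2 above the solid line.

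Several genes of heart, gut and limb, tissues other than the neural lineage, had strong peaks in WT and low ratios. At Gata4, a regulator of heart and endoderm (chr14:63237757-63255738, peak centre at -1476 bases from the start and annotated intergenic), H3K27me3 was 2368 tags per 10 M in WT and 252 in CaPS, 9.41-fold lower (ratio 0.106, interval 0.0969 to 0.116). All 5 peaks assigned to Gata4 were lower in CaPS, the next strongest at 360 against 90.5. Foxf1, needed for the mesoderm around the gut, had 1369 against 168 (ratio 0.123, interval 0.109 to 0.138). Tbx3, a T-box factor of limb and heart, had 5317 against 960 over a peak at chr5:119653604-119694457 (ratio 0.181). All 3 peaks lay far above the table's median in WT, and in CaPS far below the line of equal sums.

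Other T-box and mesenchymal regulators had like ratios. Tbx5, which directs heart and forelimb formation, had 1161 tags per 10 M in WT and 188 in CaPS (ratio 0.162). Tcf21, a factor of visceral mesenchyme, had 949 against 153 (0.161), and Tbx20, a cardiac factor, 1953 against 427 (0.219). For Tbx2, Twist2 and Hand1 the ratios were 0.253, 0.247 and 0.292. All of them lie below the ratio of sums, so they stay lower in CaPS under either scaling. Of the mesoderm and muscle list, 25 of 32 genes had a peak within 10 kb of the start, and 19 were lower past 2-fold and 0 higher, where 43.5% of all 4169 genes with such a peak were lower and 1.63% higher. With columns at the same sum, 5 of 25 were lower (Tbx5, Tbx20, Foxf1, Tcf21 and Twist2) and 0 higher, against 8.88% and 7.48% of all genes. The list's median log2 ratio was -1.29 against -0.91 for all genes, and -0.30 against 0.07 at the same sum.

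Low ratios also stood at genes of growth factors, signals and their receptors. Igf2, an imprinted growth factor gene (chr7:142656232-142667175, promoter), had 1198 tags per 10 M in WT and 129 in CaPS (ratio 0.108, interval 0.0946 to 0.123). Bmp4, a ligand that patterns mesoderm and opposes neural fate, had 598 against 125 (0.210). Pdgfra, the growth factor receptor of mesenchyme and feeder fibroblasts, had 1935 against 404 (0.209). Lhx1, a LIM factor of kidney, head organiser and interneurons, had 2085 against 475 (0.228). At 5033428I22Rik, annotated as the nearest gene of a peak among the 8 strongest in WT (chr8:57307137-57353757), 6044 stood against 1150 (0.190). Among the retinoic acid genes, Cyp26b1, which degrades retinoic acid, had the lowest ratio, with 304 against 43.3 (0.142, interval 0.111 to 0.181). Among Wnt genes the lowest was the antagonist Sfrp1 where at least 100 tags were present, with 170 against 34.2 (0.201). The weaker peak of the receptor gene Fzd4 had 52.6 against 5.17 (0.0983).

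A smaller set of peaks was higher in CaPS even per total tags, 242 of the 8657 past 2-fold. By gene, 68 of the 4169 were higher past 2-fold, among them Pax6, 1 of 27 measured genes of the neural progenitor list, and Pou3f2, 1 of 29 of the neuronal list. Pax6, a regulator of eye and forebrain (chr2:105676273-105686768, promoter), had 258 tags per 10 M in WT and 694 in CaPS, a ratio of 2.68 (interval 2.23 to 3.28). All 4 peaks assigned to Pax6 were higher in CaPS, the others at 26.9 against 89.4, 7.83 against 71.2 and 3.36 against 17.9. The upstream RefSeq start of Pax6 lies in a neighbouring peak, annotated to Pax6os1, that had 876 against 858 (ratio 0.979). Per total tags the difference thus lay at the downstream start and the gene body, while at the same sum the upstream peak, above the ratio of sums of 0.501, is higher in CaPS too.

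Sox genes of the neural plate showed the same side of the comparison. Sox2, which keeps cells in the progenitor state, had 393 tags per 10 M in WT and 641 in CaPS (ratio 1.63, interval 1.39 to 1.91), and a second peak 14108 bases from its start, in an intron of Sox2ot, had 194 against 616 (3.18). Sox1, a marker of neural commitment, had 115 against 230 (1.99, interval 1.51 to 2.73). Pou3f2, a factor of neuronal differentiation, had 169 against 492 (2.91, interval 2.33 to 3.75). Intervals of all of these lay above 1, so they were higher in CaPS under either scaling.

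Further neural genes lay above 1 per total tags as well. Zic1 had 185 tags per 10 M in WT and 319 in CaPS, Gbx2 376 against 571, Pax3 787 against 1139 and Irx3 226 against 307, with ratios of 1.73, 1.52, 1.45 and 1.36. These genes pattern the neural tube along its axes. Hes5, a target of Notch in progenitors, had 49.2 against 153 (ratio 3.12, interval 2.04 to 5.02), and Rfx4, a factor of the neural tube, had 354 against 855 (2.42, interval 2.06 to 2.86); these 2 were named after their values were seen. Outside the neural list, Eya4, a placode gene, had 143 against 234 (1.64), and the Wnt receptor gene Fzd10 had 92.9 against 135 (1.45).

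In the neural progenitor list, a few genes lay above 0 and most lay near the ratio of sums. Of 38 genes 27 were measured. Of these 14 were lower past 2-fold and 1, Pax6, higher (43.5% and 1.63% of all genes). The median log2 ratio was -1.0 (all genes -0.91). With columns at the same sum the median was -0.00 (all genes 0.07), with 0 lower and 7 higher (8.88% and 7.48% of all genes): Pax6, Sox1, Sox2, Gbx2, Irx3, Pax3 and Zic1. The strongest members had ratios near that of the sums: Lhx2 0.414, Otx1 0.450, Otx2 0.510, Olig2 0.422 and En1 0.352. These strongest members carried 2014 tags per 10 M or more in WT, against 115 to 787 for the 7 genes above. The neuronal differentiation list had 19 of 29 measured genes lower past 2-fold (43.5% of all genes) and 1, Pou3f2, higher, with a median of -1.05. At the same sum 1 was lower, Lhx1 (ratio 0.228), and 2 were higher, Pou3f2 and Neurod6.

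**Figure D2:**
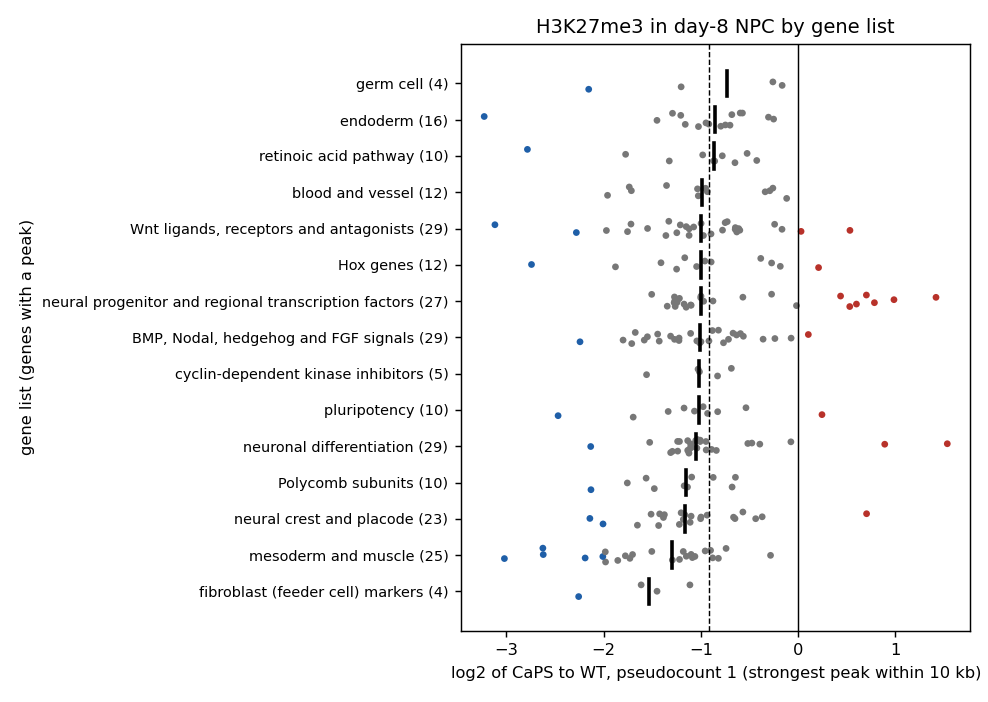
Log2 ratio of CaPS to WT per total tags (x axis) for the measured genes of each list, 1 dot a gene, blue at or below -2 and red at or above 0, with a black bar at the list's median and a dashed line at the median of all 4169 measured genes (-0.91). The mesoderm and muscle list lies to the left of that line (median -1.29), and the neural progenitor list has its median at -1.0 and 7 genes above 0.

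The lists that follow had medians from -1.16 to -0.73, beside -0.91 for all 4169 genes, of which 43.5% were lower past 2-fold and 1.63% higher. The endoderm list had 6 of 16 measured genes lower past 2-fold and 0 higher (median -0.86), with Gata4 its lowest. Blood and vessel genes had 6 of 12 lower (-0.99), among them Runx1 with 923 tags per 10 M in WT and 237 in CaPS. Neural crest and placode genes had 15 of 23 lower (-1.16), Wnt genes 14 of 29 (-1.0), and BMP, Nodal, hedgehog and FGF genes 15 of 29 (-1.01), each with 0 higher. Of these, 1 endoderm, 0 blood, 2 crest, 3 Wnt and 1 of the signal genes were lower at the same sum (8.88% of all genes). In that order 0, 0, 1, 2 and 1 were higher (7.48% of all genes). The retinoic acid list had 3 of 10 lower (-0.86), pluripotency 5 of 10 (-1.02), germ cell 2 of 4 (-0.73) and inhibitors of cyclin-dependent kinases 3 of 5 (-1.01), each with 0 higher. At the same sum 1, 1, 1 and 0 of these were lower and 0, 1, 0 and 0 higher. At Cdkn2a, the INK4A/ARF locus, 4025 tags per 10 M in WT stood against 1993 in CaPS, a ratio of 0.495 that matches the ratio of sums.

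The strongest peaks of the Hox clusters lay near the ratio of sums. The 108387-base HOXC peak annotated to Hoxc11 had 17342 tags per 10 M in WT and 7734 in CaPS (0.446), and those annotated to Hoxa11os, Hoxb13 and Hoxd13 had ratios of 0.393, 0.421 and 0.485. Toward the 3′ ends, where genes respond early to retinoic acid, single peaks had lower ratios: Hoxb1 with 130 against 18.6 (0.143, interval 0.0981 to 0.208) and Hoxd3 with 942 against 256 (0.271). Other single peaks lay above the ratio of sums: Hoxb6, the highest of the list, had 87.3 against 101 (1.16, interval 0.831 to 1.66), Hoxb7 737 against 650 (0.881) and Hoxd1 121 against 61.7 (0.511). Since each wide peak is assigned to 1 gene, 12 of 41 Hox genes were measured. Of these 6 were lower past 2-fold and 0 higher (43.5% and 1.63% of all genes), with a median of -1.0. At the same sum 1 was lower, Hoxb1, and 1 higher, Hoxb6 (8.88% and 7.48% of all genes).

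Markers served to check the label, read only as carrying the mark or not, since RNA was not analysed here. Of neural progenitor markers, 5 of 6 carried a peak and Nes did not. Pax6, Sox1 and Sox2 were higher in CaPS per total tags. Olig2 (2923 tags per 10 M in WT and 1234 in CaPS) and Neurog2 (1697 and 1222) were lower and hold most of the neural sum below. None of the 4 housekeeping markers (Actb, Gapdh, Tbp, Ppia) and none of the 15 genes of the housekeeping list had a peak. Summed levels were 5387 tags per 10 M in WT and 4020 in CaPS for the neural markers, 1637 and 869 for 4 of 6 pluripotency markers (none at Nanog or Zfp42), and 3620 and 1384 for 4 of 5 mesoderm markers (none at Tbx6). They were 7133 and 2500 for 3 of 4 endoderm markers (none annotated to Gata6), and 2783 and 705 for 5 of 6 fibroblast markers (none at Lum). The peak that overlaps the ESC peak annotated to Gata6 is annotated to its neighbour 1010001N08Rik at day 8 and had 1828 against 141. All 4 measured genes of the fibroblast list were lower past 2-fold (43.5% of all genes), and 1, Pdgfra, at the same sum (8.88% of all genes), with Col1a2 at 48.1 against 15.1 and Thy1 at 396 against 183. The part of feeder cells in either library was not tested.

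Peaks lower past 4-fold were most frequent away from starts and where ESC had no H3K27me3 peak. By distance to the nearest start, the median log2 ratio was -0.87 for 2617 peaks within 1 kb, -0.94 for 3017 peaks at 1 to 10 kb and -1.78 for 3022 peaks beyond 10 kb, with 5.85%, 10.7% and 42.9% lower past 4-fold. Distal peaks were weak, with a median of 28.0 tags per 10 M in WT and 8.97 in CaPS. Among the 4549 peaks with at least 100 tags, of which 35.5% were lower past 2-fold and 2.84% higher, the 3 medians were -0.80, -0.79 and -0.86, while 2.89%, 5.61% and 20.6% were lower past 4-fold. Because CaPS was sequenced 7.36 times as deep, that filter keeps peaks mainly by their CaPS tags and drops weak peaks low in CaPS, so it does not separate strength from the difference itself. In that stronger set, 343 peaks (7.54%) were lower past 4-fold and 22 (0.484%) higher.

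Among the stronger distal peaks, those shared with ESC and those absent from ESC differed in level and ratio. The 422 distal peaks that overlapped an ESC H3K27me3 peak had medians of 174 tags per 10 M in WT and 106 in CaPS (log2 -0.69, 4.03% lower past 4-fold). The 513 without an ESC peak had 117 and 39.4 (log2 -1.17, 34.3% past 4-fold). Overlap with a RING1B peak of the time course gave the same order: 619 distal peaks with one had a median of -0.72 and 8.24% past 4-fold, and 316 without had -1.55 and 44.9%. Among the 343 stronger peaks lower past 4-fold, 56.3% lay beyond 10 kb, 28.9% overlapped an ESC peak and 52.5% a RING1B peak. The 2807 peaks within 2-fold had 18.3%, 67.5% and 86.7% in that order, and the 129 peaks higher past 2-fold had 20.9%, 43.4% and 86.0%.

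**Figure D3:**
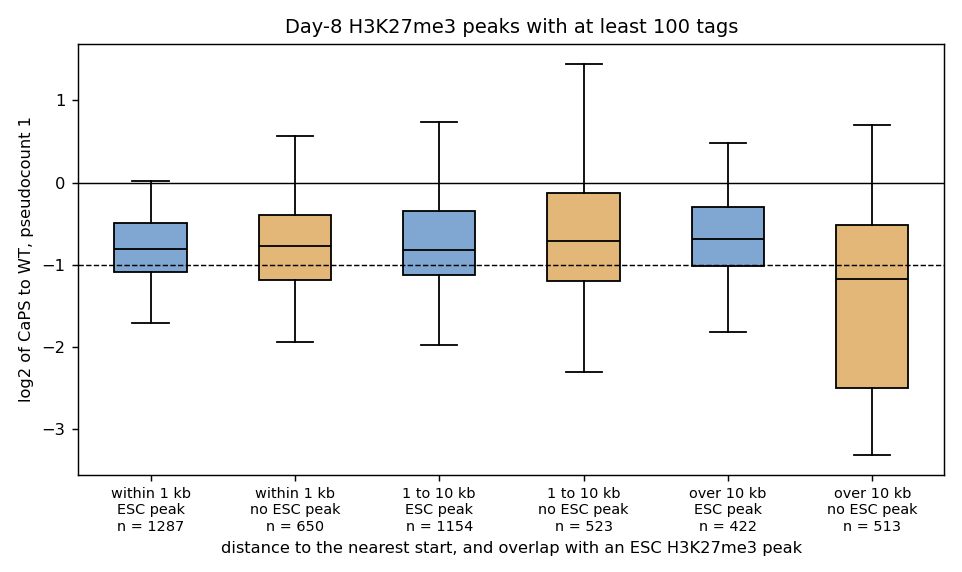
Log2 ratio of CaPS to WT per total tags (y axis) for day-8 H3K27me3 peaks with at least 100 tags, by distance to the nearest start and by overlap with an ESC H3K27me3 peak; boxes span the quartiles, whiskers the 5th to 95th percentile, and the dashed line marks the ratio of sums. Beyond 10 kb, peaks without an ESC peak (n = 513) reach lower than those with one (n = 422).

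The lowest distal ratios were at broad regions in introns or far from any gene. The peak nearest to Nkx6-2, 47102 bases from its start inside an intron of Inpp5a (chr7:139518386-139553004), had 2721 tags per 10 M in WT and 146 in CaPS, 18.6-fold lower (ratio 0.0537, interval 0.0483 to 0.0598). The peak at the Nkx6-2 promoter, a gene of ventral neural tube progenitors, had 1438 against 565 (0.393). A region nearest to the ephrin receptor gene Epha7, about 1031 kb from its start (chr4:27777421-27787068), had 508 against 30.7 (0.0605). In intron 1 of Cacna2d1, a calcium channel subunit gene, 667 stood against 47.7 (0.0716), and in intron 2 of Dennd1a 830 against 62.2 (0.0749). None of these 4 distal peaks overlapped an ESC H3K27me3 peak. Such overlap was found for 18.3% of all 3022 peaks beyond 10 kb and for 45.1% of the 935 stronger ones. RING1B of experiment 5 was 15.3 tags per 10 M in WT and 4.89 in CaPS at the Nkx6-2 region, 440 and 29.4 at that of Epha7, 999 and 109 at Cacna2d1, and 224 and 21.5 at Dennd1a, in 1 library per genotype. These are values of the overlapping RING1B peaks over their own intervals, and not of RING1B across the whole H3K27me3 regions. RING1B peaks that overlapped the Nkx6-2 region thus had low values in both genotypes, and those at the other 3 regions had high values in WT. On the higher side, distal peaks nearest to the homeobox gene Msx3 and to Stox2 had 86.2 against 310 (3.60) and 88.4 against 272 (3.08).

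The extremes of the ratio near starts had unequal support. The lowest ratios within 10 kb among peaks with at least 100 tags were, beside Gata4 and Igf2, those of Lhfpl2 with 159 tags per 10 M in WT and 10.8 in CaPS (0.0680), 1010001N08Rik with 1828 against 141 (0.0773, interval 0.0687 to 0.0866), Dlc1 with 161 against 13.4 (0.0830), Zfpm1 with 245 against 22.4 (0.0912), Dbx2 with 651 against 62.5 (0.0960) and Adgra2 with 238 against 24.8 (0.104). The highest ratios, at Kis2, Gdf3, Zswim5, Gldc, Gm38438, Slitrk5 and second peaks of Pax6 and Irx3, had between 1.12 and 8.95 tags per 10 M in WT, of which all but Gm38438 and that of Pax6 are under the WT floor. They had between 29.9 and 71.2 in CaPS, and their intervals are wide, as for Gdf3 (2.75 to 623). In WT, 2321 peaks (26.8%) rested on fewer than 10 tags, against 608 in CaPS, so ratios of weak peaks are limited by the WT depth. In every peak the higher of both columns was at least 11.19 tags per 10 M, and 3170 peaks had a CaPS value under 14 against 289 with a WT value under 14.

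RING1B in the same cell state was compared at the overlapping peaks, as a readout with replicates. Of the day-8 H3K27me3 peaks, 33.0% overlapped a day-8 RING1B peak of that table by at least 1 base, and 16.1% over the greater part of their width. That table holds only peaks within 10 kb of starts, and 61.4% of the RING1B peaks overlapped H3K27me3. RING1B libraries were from experiments 3 and 4 (n = 2 per genotype), and a further pair from experiment 5 stands in the time course table. Nothing in the labels says that they came from separate cultures, so the spread between libraries may be technical. The limma p-values below rest on that spread pooled over all peaks at like signal, and not on a peak's own libraries. Sums over overlapping RING1B peaks at Gata4 were 712 tags per 10 M in WT and 192 in CaPS in experiment 3, 1350 and 284 in experiment 4, and 2564 and 339 in experiment 5. WT was above CaPS in all 3 pairs, as it was for Tbx3 (1016 and 416, 2083 and 647, 4008 and 952) and Tbx5 (242 and 87.4, 414 and 132, 986 and 202). At Igf2 the pairs were 318 and 165, 708 and 185, and 1071 and 314. At these 4 genes, RING1B of 2 further experiments thus lay per total tags on the same side as H3K27me3.

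At Pax6, Pou3f2, Sox2 and Sox1, which had more H3K27me3 in CaPS, RING1B was higher in CaPS as well. Pax6 had 659 tags per 10 M in WT and 1215 in CaPS in experiment 3, 958 and 1150 in experiment 4, and 859 and 2866 in experiment 5. Pou3f2 had 1132 and 2844, 994 and 1881, and 468 and 5800. Sox2 had 910 and 2475, 595 and 1592, and 550 and 6178, where the RING1B peak of experiment 5 spans both Sox2 peaks. Sox1 had 387 and 775, 314 and 600, and 2724 and 3542. Per total tags, CaPS was above WT in all 3 pairs at each of these genes. The pairs carry offsets: over all measured genes with RING1B values, median log2 ratios were 0.29, -0.94 and 0.30 in experiments 3, 4 and 5. Cyp26b1 did not share the order of its H3K27me3: RING1B there was 135 and 182, 164 and 166, and 238 and 412. Hoxb1, Bmp4 and Hes5 had no common direction. The pairs were 9.67 and 13.0, 43.0 and 15.2, and 132 and 158 at Hoxb1. At Bmp4 they were 20.8 and 34.9, 58.3 and 42.0, and 185 and 192. At Hes5 they were 6.77 and 10.9, 30.6 and 5.78, and 59.7 and 78.3. Opposite sides at Hoxb1, Bmp4 and Hes5 cannot be told from the offset between pairs.

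**Figure D4:**
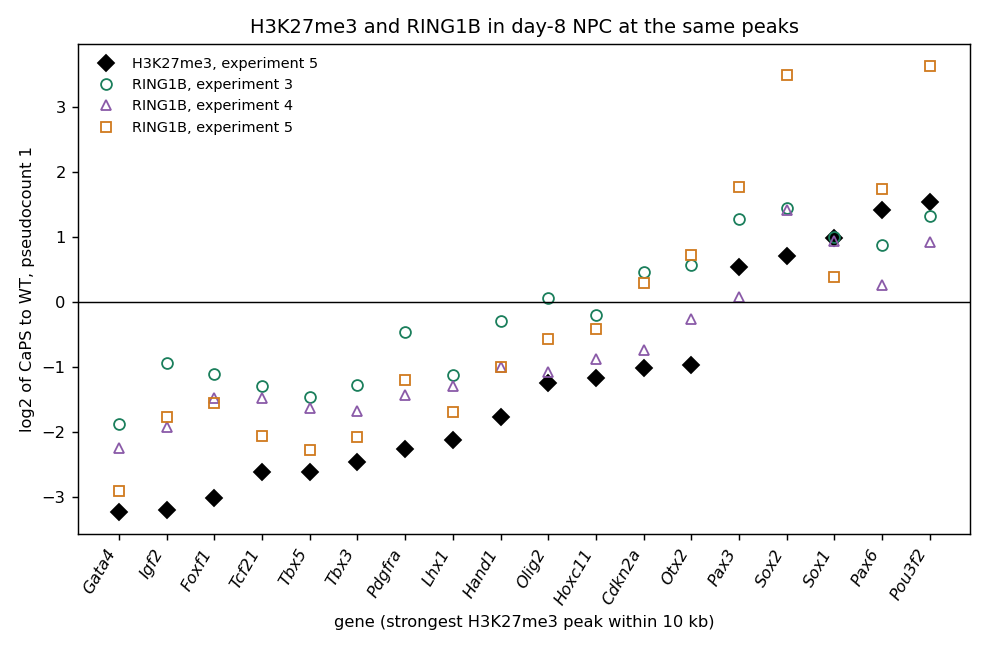
Log2 ratio of CaPS to WT (y axis) at 18 genes (x axis) for day-8 H3K27me3 of experiment 5 (black diamond) and day-8 RING1B of experiments 3, 4 and 5 (other symbols), all per total tags with a pseudocount of 1. Gata4, Tbx3 and Tbx5 lie below 0 in all 4 readouts and Pax6, Pou3f2, Sox1 and Sox2 above 0 in all 4.

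No RING1B peak passed the test across the table. Limma with the experiment as a block called 0 of 5393 peaks lower (0%) and 0 higher at an adjusted p under 0.05, with 532 at an unadjusted p under 0.05, and edgeR called 0 as well, with 525 unadjusted. The fit carries the offset between pairs, with a median log2 ratio of 0.15 in experiment 3 and -0.88 in experiment 4. With every library scaled to the same sum, limma called 243 lower (4.51%) and 192 higher (3.56%), and the median moved from -0.37 to -0.23. Gata4 had a log2 ratio of -2.14 (SE 0.80, limma adjusted p = 0.459) on the deposited scale and -2.0 (adjusted p = 8.6e-24) at the same sum. Pou3f2 had 1.12 (SE 0.68, limma adjusted p = 0.573) and 1.26 (adjusted p = 8.6e-17), and Pax6 0.57 (SE 0.73, limma adjusted p = 0.864) and 0.71 (adjusted p = 0.00032). Under the same-sum fit limma also called Igf2 (-1.34, adjusted p = 3.5e-08), Foxf1 (-1.16, adjusted p = 4.3e-05), Lhx1 (-1.16, adjusted p = 1.9e-06), Sox1 (1.10, adjusted p = 2.5e-07) and Eya4 (1.55, adjusted p = 2.9e-13). Without the block, with a pseudocount of 5 and by edgeR none of these 8 genes passed, with adjusted p from 0.0843 (Gata4, without the block) to 0.911 (Pax6, edgeR).

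Counted by H3K27me3 class, the same-sum RING1B calls fell on the side of the H3K27me3 difference at both ends. Of 92 peaks with at least 100 tags that were lower in H3K27me3 past 4-fold and overlapped a RING1B peak, limma called RING1B lower at 22 (23.9%) and higher at 0. Of 788 peaks lower 2- to 4-fold it called 51 lower (6.47%) and 8 higher, and of 1596 within 2-fold 34 lower (2.13%) and 87 higher (5.45%). Of 79 peaks higher past 2-fold it called 0 lower and 30 higher (38.0%). The same order held for the median log2 ratio of RING1B in experiment 5, which was -0.30, 0.12, 0.42 and 1.55 over 180, 1108, 2435 and 111 peaks from the lowest to the highest class. In experiment 3 the medians were -0.21, 0.22, 0.32 and 0.94, and in experiment 4 they were -0.93, -0.90, -0.99 and -0.03. In experiment 4 only the class with more H3K27me3 stood apart. Across peaks, which share libraries and are not independent replicates, Pearson's r between the log2 ratios of H3K27me3 and RING1B was 0.26, 0.13 and 0.46 in experiments 3, 4 and 5, and Spearman's rho was 0.19, 0.06 and 0.36. Experiment 5 also gave the H3K27me3 libraries.

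In ESC, before differentiation, H3K27me3 values of both genotypes lay closer together at Gata4, Pax6, Tbx3 and Igf2, and at Gata4, Pax6 and Igf2 on opposite sides in the 2 experiments. The median log2 ratio over the 2863 stronger day-8 peaks with an ESC peak changed side likewise, 0.23 in experiment 1 and -0.39 in experiment 5. Opposite sides at single genes thus cannot be told from this offset between library pairs. At Gata4, H3K27me3 was 465 tags per 10 M in WT and 468 in CaPS in experiment 1 and 1017 and 708 in experiment 5 (limma log2 -0.26, SE 0.52, adjusted p = 0.9997, and 0.541 at the same sum). At Pax6, summed over overlapping peaks, the pairs were 258 and 292, and 502 and 398. Tbx3 had 510 and 596, and 683 and 750, and Igf2 287 and 319, and 444 and 381. Sox2 had 6.53 and 15.5, and 19.1 and 18.4 in ESC, where this gene is active. Limma and edgeR called 0 of 9195 ESC peaks (0%) lower or higher, with 101 and 92 at an unadjusted p under 0.05. With libraries at the same sum limma called 38 lower (0.413%) and 11 higher (0.12%). Among the named genes, peaks it called were all lower and on chromosome 6 (Cyp26b1, Hoxa11os) or 8 (5033428I22Rik, Adgra2, Foxf1, Zfpm1). Over day-8 peaks with an ESC peak, median log2 ratios in experiments 1 and 5 were -0.03 and -0.69 on chromosome 6. They were -0.09 and -0.77 on chromosome 8, and 0.18 to 0.37 and -0.51 to -0.27 on the other autosomes and X. Whether these calls belong to single genes or to whole chromosomes was not tested.

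Over the ESC peaks that overlapped a stronger day-8 peak, median log2 ratios hardly differed between day-8 classes. From the class lower past 4-fold to the class higher past 2-fold they were 0.15, 0.21, 0.25 and 0.24 in experiment 1, and -0.48, -0.39, -0.39 and -0.31 in experiment 5. Across these 2863 peaks Pearson's r with the day-8 log2 ratio was 0.10 and 0.07. Whether the genotype difference itself changed between ESC and day 8 was not tested, because day 8 has no replicate. In all, 39.6% of day-8 peaks overlapped an ESC H3K27me3 peak by at least 1 base, and 37.5% of the ESC peaks overlapped a day-8 one. Where the greater part of the day-8 peak had to be covered, the share of day-8 peaks was 23.8%. The 5229 day-8 peaks without an ESC peak had a median log2 ratio of -1.43, and the 3428 with one had -0.80. These groups also differed in strength, with median WT levels of 28.0 and 180 tags per 10 M. Among peaks with at least 100 tags, medians without and with an ESC peak were -0.77 and -0.81 within 1 kb of a start. They were -0.72 and -0.82 at 1 to 10 kb, and -1.17 and -0.69 beyond, so the lower median without an ESC peak was seen only there.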

How the data were processed

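H3K27me3 and RING1B ChIP of WT and CaPS cells were compared from the deposited peak tables. Per the file headers these are HOMER annotation tables on mm10, whose values are a signal, the tags of each library in a peak set to a total of 10 M. Per the submitters' processing notes, reads were handled with HOMER 4.10.4, SAMtools 1.9, Bowtie2 2.3.4.3 and cutadapt 1.14, on builds mm10 and dm6. The sources used here do not say how peaks of both genotypes were merged or whether the spike-in entered the header totals. Multiplying the deposited signal by the header totals gave whole read ends (0.5 tag) for 100% of values within 0.1 read ends, so tag counts could be recovered. The totals were 4.47 M and 32.88 M tags for day-8 H3K27me3, 5.23 to 25.34 M for RING1B of experiments 3 and 4, 6.2 and 5.11 M for RING1B of experiment 5, and 10.99 to 26.62 M for ESC H3K27me3. Of the columns of per-sample values in the tables used, 12 were not used.

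Log2 ratios of day-8 H3K27me3 were taken as log2((CaPS + 1) / (WT + 1)), which understates the difference of weak peaks, with a threshold of 2-fold and no test. Printed ratios are of the values themselves, with exact (Clopper-Pearson) 95% intervals from the tags. A gene was measured by the peak with the highest mean within 10 kb of its start. RING1B and ESC H3K27me3 were tested on log2(value + 1) with limma 3.58.1 (trend, Benjamini-Hochberg over all peaks, 0.05) in R 4.3.3, with the experiment number as a block because the series design text compares experiments run together. Deviations of same-numbered libraries correlated at 0.25 for RING1B and 0.09 for ESC H3K27me3. The prior degrees of freedom were infinite, so a p-value rests on the spread of all peaks at like signal and not on the peak's own libraries. Peaks counted as overlapping where they shared at least 1 base. Of several overlapping peaks the strongest was used for the test. A check on simulated data held no offset between experiments, which these libraries have, so it does not show how the test performs here. edgeR 4.0.16 on recovered read ends was an alternative.

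The regions, the 16 gene lists and the tests were chosen with earlier results of these data known. Named by rule were the 3 strongest and the lowest and highest members of each list, the 8 highest WT values, the 8 lowest and 8 highest ratios within 10 kb, and genes set in advance. Other list members and the distal peaks serve as examples chosen after their values were seen. Promoter windows are from RefSeq (GRCm38.p6), where 59 of 93 named genes matched. Genes under a wide peak annotated to a neighbour count as not measured. Some items are not reported here.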

Additional observations from a re-analysis of the deposited data

How the results depend on the processing

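The median log2 ratio of day-8 H3K27me3 was -0.094 with columns at the same sum (1975 peaks lower and 802 higher past 2-fold), -0.96 with a pseudocount of 5, and -0.80 among peaks with at least 100 tags (1613 lower, 129 higher). With that filter and the same sum together, chosen after seeing the data, it turned to 0.19, with 353 lower and 516 higher; the direction over all peaks thus depends on the scaling. A pseudocount of 0.5, leaving out chromosomes 6 and 8, autosomes alone, and leaving out Rn45s (added later) kept the direction and both counts within 1.5 times. All 15 list medians moved at the same sum and none under the 5 other settings tried for lists, and of the named peaks 85 moved and 9 did not at the same sum. For RING1B at day 8, the fit without the replicate block called 26 lower and 11 higher, and the same sum 243 and 192, against 0 and 0; a pseudocount of 5 and edgeR gave 0. For H3K27me3 in ESC, 38 were lower and 11 higher at the same sum, while the fit without the replicate block, the pseudocount and edgeR gave 0. The cause of these differences was not tested. With 1 experiment left out there is no residual spread and so no test: the median for RING1B was then between -0.88 and 0.15, and that for ESC H3K27me3 between -0.32 and 0.30. The WT depth of 4.47 M tags limits the ratios of weak peaks.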

Other observations

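Genes of Polycomb subunits carried the mark themselves. Of 26 listed, 10 had a peak within 10 kb, 7 were lower in CaPS past 2-fold and 0 higher (43.5% and 1.63% of all genes), with a median log2 ratio of -1.15 (all genes -0.91). At the same sum 1 was lower and 0 higher, with a median of -0.18 (all genes 0.07). Cbx8, which encodes a CBX paralog, had 1038 tags per 10 M in WT and 372 in CaPS. Cbx2 had 47.0 against 20.8, and Cbx7 itself 133 against 82.9 at its promoter (ratio 0.622, interval 0.466 to 0.832). Rybp, a subunit of variant PRC1, was the lowest of the list, with 137 against 30.4.

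Peaks of chromosome 16 had a lower median log2 ratio (-1.45, n = 296) than those of the other chromosomes with over 100 peaks (-1.20 to -0.96), and 0.338% of them were higher past 2-fold. The strongest signal of the table was at Rn45s, the multi-copy ribosomal RNA gene, whose copies cannot be told apart by short reads, with 35019 tags per 10 M in WT and 19639 in CaPS (ratio 0.561).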
